A study of Mus musculus with 5 samples.

Results

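The astrocyte genes for glutamate uptake, water transport and cell coupling described here are 10 genes of known function, namely Slc1a2, Slc1a3, Slc6a11, Glul, Aqp4, Kcnj10, Gja1, Gjb6, Aldh1l1 and Agt. They were chosen by name, and all 10 were found among the 19221 genes of the deposited table. The mice were C57BL/6 males, 9 weeks old, and the tissue was punched from the caudate putamen. The 4 stroke libraries came from the lesion 4 hours, 1 day, 3 days and 10 days after photothrombosis, each pooled from 6 animals. Photothrombosis used rose bengal at 100 mg/kg and 532 nm laser light at 30 mW for 2 min, led by an optical fibre 3 mm below the dura, so that clots form where the lit dye is activated. They were set against 1 sham library from the opposite hemisphere, in which the fibre was placed and the laser was applied ahead of the dye. Every sham punch therefore came from an animal with a stroke on the other side. The sources used here do not state how many animals or which times the sham pool holds. With 1 pooled library per group no difference has a replicate check, and no p-value was computed.

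Astrocytes clear the glutamate and GABA that neurons release, turn glutamate into glutamine, and take up the potassium that firing neurons lose. Their endfeet on blood vessels are rich in water channels, and gap junctions join neighbouring astrocytes into networks. In the striatum, where glutamate arrives from cortex and thalamus and most neurons use GABA, both uptake systems are active. Loss of these functions is a known feature of ischaemic tissue, and reactive astrocytes are known to change their surface proteins.

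Markers were read to see that the bulk punches held RNA of striatal neurons and astrocytes, among other cells. Of 13 medium spiny neuron markers, 13 were analysed, with a summed level of 2242 RPKM in sham, and 29 of 32 other astrocyte markers were analysed, Aldoc at 179 RPKM in sham among them. RPKM is a read number divided by the length of the gene and by the reads of the library. An analysed gene had at least 1 RPKM in at least 1 library, which 12783 genes and all 10 members met. The read totals were between 42261786 and 48013851. Loci carrying ribosomal RNA took 27.7% of reads recovered on genes at 4 hours, 35.9% on day 1, 30.2% on day 3, 39.3% on day 10 and 42.8% in sham. Median-of-ratios scaling divides out a log2 factor of 0.41 at 4 hours, -0.05 on day 1, 0.16 on day 3 and 0.14 on day 10 relative to sham. Levels below are as deposited, and scaled values are given for the 10 genes and for list medians where they alter the reading. Single genes of other lists and their 2-fold counts are as deposited only. At 4 hours, day 3 and day 10 those just above the limit for 2-fold higher may fall below it when scaled.

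Most of the 10 genes were lower than sham on days 1 and 3. On day 10, 6 of 10 were above sham as deposited, with Slc1a2 turning below sham after median-of-ratios scaling. Most of all genes analysed were also above sham on day 10 as deposited, so that count does not set the members apart. Aqp4 was highest on day 10 and Aldh1l1 on day 3, and Gjb6 and Agt were still lower on day 10. In these bulk punches fewer astrocytes and less RNA per astrocyte cannot be told apart. The size of a difference is given as a plain ratio of RPKM values and as a log2 fold with 1 RPKM added to both values, which understates the difference of low genes. Every limit of 2-fold or 1.5-fold here applies to the log2 fold with that 1 RPKM added, so a gene of low level can pass 2-fold by its plain ratio and not be counted. The interval beside a ratio is an exact binomial interval at 95% on recovered read pairs and covers only the error of counting. With 1 pooled library per group it holds no spread between animals. PCR copies of a molecule are read as separate, so it can be too narrow even for counting.

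At 4 hours the 10 log2 folds spanned -0.39 to 0.75, with a median of 0.13 beside 0.28 over all genes analysed. After median-of-ratios scaling these medians were -0.23 and -0.01. No member was 2-fold higher or lower in that library, where 2.2% of all genes were 2-fold higher and 1.09% lower. By a limit of 1.5-fold, 2 of 10 were higher at 4 hours (Gjb6 and Glul), against 18.5% of all genes, and 0 were lower, against 3.04%. After scaling Gjb6 (log2 fold 0.39) and Glul (0.31) were short of that limit, and Slc1a2 was past it as lower (-0.63). On day 1 the median was -0.59, beside -0.02 over all genes, and 9 of 10 members had a negative log2 fold. Of all genes, 69.2% had a lower log2 fold than the 0.19 of Aldh1l1, the 1 positive member. With 1 RPKM added none of them was 2-fold lower, where 1.35% of all genes were, or higher, where 3.33% were, although the plain ratios of Gja1 (0.409) and Kcnj10 (0.463) were below 0.5. By the 1.5-fold limit, 5 of 10 members were lower on day 1, against 8.48% of all genes, and 0 were higher, against 11.1%.

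On day 3 the median was -0.36 (-0.49 scaled), beside 0.12 over all genes (0.00 scaled), and 7 of 10 members were negative. Of all genes, 54.6% had a lower log2 fold than the 0.18 of Kcnj10, the lowest of the 3 positive members. Agt was 2-fold lower, as 0.618% of all genes were, and Aldh1l1 was 2-fold higher, as 9.04% were. After scaling 3 members were 2-fold lower on day 3 and 0 higher, with no scaled share of all genes to set beside them. By the 1.5-fold limit, 4 of 10 were lower, against 5.26% of all genes, and 2 of 10 were higher, against 22.2%. On day 10 the median was 0.09 (-0.04 scaled), close to the 0.07 of all genes (-0.03 scaled). As deposited 6 of 10 members were positive, and 42.0% of all genes had a lower log2 fold than Slc1a2, the lowest of these 6. Aqp4 was the 1 member 2-fold higher, where 4.2% of all genes were, and no member was 2-fold lower, where 0.172% of all genes were. After scaling 0 members were 2-fold higher on day 10, again without a scaled share of all genes. By the 1.5-fold limit 1 of 10 was higher on day 10, where 10.5% of all genes were, and 0 lower, where 0.759% were. The 4 stroke libraries share 1 sham library, so the 4 comparisons are not independent.

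Read by the counting interval in place of a size limit, 5 of 10 ratios to sham lay above 1 at 4 hours, where 58.7% of all genes with an interval did, and 2 lay below, where 9.22% did. On day 1 the numbers were 1 above (29.3% of all genes) and 8 below (32.6%). On day 3 they were 3 above (41.8%) and 7 below (24.5%), and on day 10 they were 5 above (32.1%) and 2 below (14%). After median-of-ratios scaling the balance turned at 4 hours, to 3 above and 6 below, and on day 10, to 4 above and 5 below. On day 1 it was 1 above and 8 below, and on day 3 it was 2 above and 7 below. The shares of all genes given above are as deposited and were not rescaled. Scaling shifts every gene of a library alike, so it cannot be said if the turn is particular to the 10 genes.

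**Figure D1:**
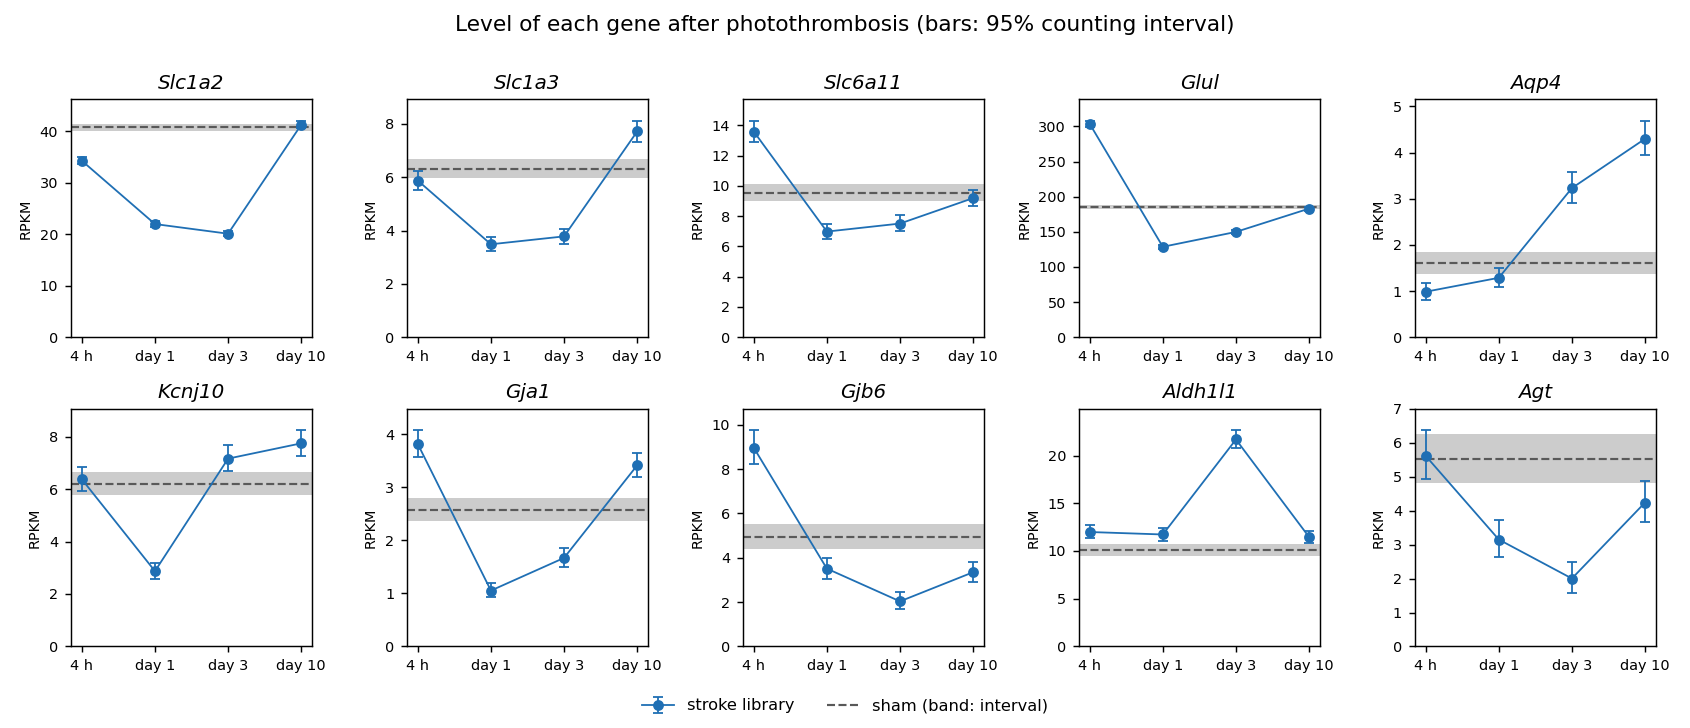
RPKM of each of the 10 genes in the 4 stroke libraries (points, evenly spaced by time) and in sham (dashed line), with 95% counting intervals as bars and band; each point is 1 pooled library. Slc1a2 is lowest on day 3 with 20.1 RPKM, Kcnj10 and Gja1 are lowest on day 1, Aqp4 is highest on day 10 with 4.30 RPKM, and Aldh1l1 stands out on day 3 with 21.7 RPKM.

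Slc1a2 and Slc1a3 encode GLT-1 and GLAST, the sodium-driven transporters through which astrocytes remove most extracellular glutamate. Slc1a2 (ENSMUSG00000005089, GRCm38 chr2:102658659-102790784, plus strand) measured 34.2 RPKM at 4 hours, 22.0 on day 1, 20.1 on day 3 and 41.2 on day 10, against 40.7 RPKM in sham. The lowest levels were thus those of days 1 and 3, with day 3 below day 1 by a ratio of 0.915 (0.882 to 0.948), while the day 10 level lay next to sham. The ratio to sham was 0.841 at 4 hours (counting interval 0.819 to 0.864, 0.635 scaled), 0.539 on day 1 (0.523 to 0.556) and 0.493 on day 3 (0.478 to 0.509). Only 0.673% of all genes analysed had a lower log2 fold on day 3 than the -0.98 of Slc1a2. On day 10 the ratio was 1.01 with an interval of 0.988 to 1.04, and scaling turned it to 0.922 (0.899 to 0.945). Between day 10 and day 3 the ratio was 2.05 (1.99 to 2.12). A gene on the opposite strand, Gm13872, overlaps exons of Slc1a2, and the 189 bases shared are 1.44% of its exons.

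Slc1a3 (ENSMUSG00000005360, chr15:8634124-8710764, minus strand) measured 5.87 RPKM at 4 hours, 3.48 on day 1, 3.78 on day 3 and 7.71 on day 10, against 6.31 RPKM in sham. It too was low on days 1 and 3, and its day 10 library was the highest. The ratio to sham was 0.552 on day 1 (0.503 to 0.607), 0.599 on day 3 (0.545 to 0.659) and 1.22 on day 10 (1.13 to 1.32). Days 1 and 3 could not be told apart by counting, with a ratio of day 3 over day 1 of 1.08 (0.975 to 1.21), nor could 4 hours and sham as deposited (ratio 0.931, interval 0.859 to 1.01). After scaling the 4-hour ratio was 0.703 (0.648 to 0.763). Within a library the ratio of Slc1a2 to Slc1a3 is free of scaling, and it ranged from 5.31 on day 3 to 6.30 on day 1 among the stroke libraries, against 6.45 in sham. Across the 5 libraries that ratio varied by 1.21-fold, the least of the 6 gene pairs set out here. By counting it was still lower than in sham (6.09 to 6.86) on day 3 (4.90 to 5.76) and on day 10 (5.07 to 5.63).

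The RefSeq promoters (GRCm38.p6, 250 bases before to 50 after the annotated start) of these transporter genes are shown because both genes had a like course. Capitals mark matches to any of 6 short motifs searched on both strands, which were the NFI motif TTGGCA, the AP-1 site TGANTCA, the SOX core ACAAT, the CRE core TGACG, the TATA box TATAAA and the GC box GGGCGG. The Slc1a2 window is chr2:102706188-102706487 on the plus strand and the Slc1a3 window is chr15:8710758-8711057 on the minus strand.
Slc1a2: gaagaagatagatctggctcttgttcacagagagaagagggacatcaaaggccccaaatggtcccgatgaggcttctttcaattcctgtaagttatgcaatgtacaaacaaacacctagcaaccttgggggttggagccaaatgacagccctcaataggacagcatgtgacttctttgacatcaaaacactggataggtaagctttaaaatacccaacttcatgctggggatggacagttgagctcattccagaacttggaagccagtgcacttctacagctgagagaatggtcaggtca
Slc1a3: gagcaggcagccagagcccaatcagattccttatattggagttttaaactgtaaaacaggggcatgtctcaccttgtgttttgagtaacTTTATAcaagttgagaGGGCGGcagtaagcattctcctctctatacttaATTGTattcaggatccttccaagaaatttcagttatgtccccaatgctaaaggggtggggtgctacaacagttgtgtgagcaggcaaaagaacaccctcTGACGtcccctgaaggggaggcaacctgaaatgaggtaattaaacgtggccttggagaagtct
The Slc1a2 window lies inside the gene span given above, downstream of its first annotated base. It held none of the 6 motifs and the Slc1a3 window held 4 of them, at matches that were not tested as sites. Among all 32851 promoter windows of the same length the SOX core was present in 31.0%, the CRE core in 20.8%, the TATA letters in 13.6% and the GC box in 35.7%. The G and C share was nearly equal, at 45.7% in the Slc1a2 window and 45.3% in the Slc1a3 window, with 1 and 3 CpGs. Of the 10 members, 9 had a window in the RefSeq table. The GC box was in 5 of them (Glul, Kcnj10, Aldh1l1, Slc6a11 and Slc1a3), the CRE core and the TATA letters in 2 each, and the NFI motif, present in 14.1% of all windows, in 0.

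Slc6a11 encodes GAT-3, the GABA transporter of astrocytes, and Glul encodes glutamine synthetase, which turns the recovered glutamate into glutamine. Glul (ENSMUSG00000026473, chr1:153899944-153909723, plus strand) was the most abundant of the 10 genes in all 5 libraries, at 304 RPKM at 4 hours, 129 on day 1, 150 on day 3 and 183 on day 10, against 185 RPKM in sham. It was high at 4 hours, low on days 1 and 3 and close to sham on day 10. Against sham the ratio was 1.64 at 4 hours (1.60 to 1.67), and 1.24 after scaling (1.21 to 1.27). On day 1 it was 0.695 (0.677 to 0.713), on day 3 0.809 (0.789 to 0.830) and on day 10 0.988 (0.965 to 1.01), or 0.899 scaled (0.878 to 0.920). From 4 hours to day 1 the level differed most, with a ratio of day 1 over 4 hours of 0.424 (0.414 to 0.434). Exons of Glul share 209 bases with Teddm2 on the opposite strand and the microRNA gene Mir8114, which is 6.29% of its exon length.

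Slc6a11 (ENSMUSG00000030307, chr6:114131241-114249952, plus strand) followed Glul, at 13.6 RPKM at 4 hours, 6.98 on day 1, 7.51 on day 3 and 9.19 on day 10, against 9.54 RPKM in sham. Of all pairs among the 10 genes, Slc6a11 and Glul had the closest log2 folds, at a Euclidean distance of 0.27 over the 4 times, followed by Slc1a2 with Slc1a3 and Slc1a2 with Agt, both at 0.49. The Slc6a11 ratio to sham was 1.42 at 4 hours (1.32 to 1.54), but after scaling it was 1.08 with an interval of 0.995 to 1.16. It was 0.731 on day 1 (0.666 to 0.801), 0.787 on day 3 (0.717 to 0.862) and 0.963 on day 10 (0.884 to 1.05), or 0.877 scaled (0.805 to 0.953).

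The uptake genes did not keep a fixed proportion to each other. Glul measured 8.87 times the RPKM of Slc1a2 at 4 hours, 5.86 times on day 1, 7.46 times on day 3 and 4.44 times on day 10, against 4.55 times in sham. Slc6a11 over Slc1a2 was 0.397, 0.318, 0.374 and 0.223 in the same order of times, against 0.234 in sham. Both ratios were above sham at 4 hours, day 1 and day 3, with counting intervals apart from that of sham, and on day 10 their intervals overlapped the sham interval.

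Of 20 other genes of glutamate and GABA handling, 17 were analysed. At 4 hours 1 of 17 was 2-fold higher, Slc1a1, the neuronal glutamate transporter gene, with a log2 fold of 1.02, and the list median was 0.49 (0.16 scaled). On day 1 the median was -0.41 and 1 of 17 was 2-fold lower, the metabotropic glutamate receptor gene Grm3 at 1.53 RPKM against 4.39 in sham (-1.09). On day 3 the median was -0.20, and with 1 RPKM added 0 of 17 were past 2-fold. Slc38a3, a glutamine exporter gene of astrocytes, was at 11.4 RPKM on day 3 against 5.67 in sham (0.90), while Abat, which degrades GABA, was at 6.05 against 13.04 (-0.99). On day 10 the median was -0.06 and 0 of 17 were past 2-fold.

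Aqp4 encodes the water channel of astrocyte endfeet and Kcnj10 encodes Kir4.1, the potassium channel that buffers extracellular potassium. Aqp4 (ENSMUSG00000024411, chr18:15389496-15410982, minus strand) measured 0.985 RPKM at 4 hours, 1.29 on day 1, 3.23 on day 3 and 4.30 on day 10, against 1.60 RPKM in sham. It was below sham at 4 hours and above it on days 3 and 10, an order that no other of the 10 genes had as deposited, although Kcnj10 and Aldh1l1 had it after median-of-ratios scaling. The ratio to sham was 0.616 at 4 hours (0.485 to 0.784), 0.805 on day 1 (0.649 to 1.01), 2.02 on day 3 (1.69 to 2.44) and 2.69 on day 10 (2.28 to 3.21). Scaling left these on the same side of 1, with 0.465 at 4 hours and 2.45 on day 10. Day 10 was above day 3 by 1.33-fold (1.16 to 1.53), and 96.0% of all genes had a lower log2 fold on day 10 than the 1.03 of Aqp4.

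Aqp4 was the lowest of the 10 genes in sham, where only 29.9% of the genes analysed had less. Its values rest on 365 reads in sham and 1049 on day 10, the sham number being the smallest of the 10 genes in that library. An exon length of 5082 bases was used for these reads, since the 6233 bases of the annotation did not give whole reads and 5082 was the 1 length between 1000 and 10000 that did. Ependymal cells also carry this channel. Of 9 ependymal and choroid plexus markers 8 were analysed and none was at 0, and their summed level was 756 RPKM at 4 hours, 318 on day 1, 46.9 on day 3 and 18.0 on day 10, against 89.7 RPKM in sham. Ttr, the choroid plexus gene of transthyretin, made up 729 RPKM of it at 4 hours and 303 on day 1, but 19.6 on day 3 and 0.205 on day 10, against 77.4 RPKM in sham. Foxj1, a transcription factor gene of ciliated ependymal cells, was at 4.83, 2.24, 6.18 and 6.47 RPKM at the 4 times, against 3.23 in sham. Of the 8 analysed, 6 had a negative log2 fold on day 3 and 5 on day 10 as deposited. Tmem212 was among them, at 0.0661 and 0.233 RPKM against 0.249 in sham. Foxj1 was thus 1 of 2 positive genes on day 3 and 1 of 3 on day 10. The part of ependymal cells in the Aqp4 values was not tested.

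Kcnj10 (ENSMUSG00000044708, chr1:172341210-172374085, plus strand) measured 6.37 RPKM at 4 hours, 2.87 on day 1, 7.16 on day 3 and 7.74 on day 10, against 6.20 RPKM in sham. Day 1 stood alone as low, and the other 3 stroke libraries lay at or above sham as deposited. Its ratio to sham on day 1 was 0.463 (0.408 to 0.526), and 2.04% of all genes had a lower log2 fold than its -0.90. On day 3 over day 1 the ratio was 2.49 (2.20 to 2.83), nearly that of Aqp4 over the same step (2.51, 2.06 to 3.05). The ratio to sham at 4 hours was 1.03 (0.929 to 1.14), which scaling turned to 0.776. It was 1.15 on day 3 (1.04 to 1.28), and 1.04 after scaling (0.937 to 1.15), and it turned below 1 without ribosomal RNA, mitochondrial, small RNA and predicted loci. On day 10 it was 1.25 (1.14 to 1.37). Within a library, Aqp4 over Kcnj10 was 0.155 at 4 hours, 0.448 on day 1, 0.451 on day 3 and 0.555 on day 10, against 0.258 in sham.

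Of 20 genes of endfoot anchoring, water and ion transport beside these, 13 were analysed. At 4 hours 1 of 13 was 2-fold higher, the potassium channel gene Kcnk2 (log2 fold 1.01), with a list median of 0.49 (0.13 scaled). On days 1 and 3 the median was -0.25 and -0.03 (-0.18 scaled on day 3), and 0 of 13 were past 2-fold at either time. Dag1, the dystroglycan gene, whose protein complex anchors the Aqp4 channel, was at 4.24 RPKM on day 3 against 6.11 in sham (-0.44). Dmd and Kcnj16, a partner subunit of Kcnj10, were under 1 RPKM in every library. On day 10 the median was 0.06 (-0.05 scaled) and 1 of 13 was 2-fold higher, the water channel gene Aqp1, at 2.45 RPKM against 0.195 (1.53). At 4 hours Aqp1 was at 1.19 RPKM. Choroid plexus is a known site of Aqp1, and the choroid plexus gene Ttr was at 729 RPKM at 4 hours and 0.205 on day 10, against 77.4 in sham. The source of the Aqp1 reads was not tested. Mlc1, an endfoot membrane protein gene, was at 60.0 RPKM on day 10 against 41.0 in sham (0.54).

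**Figure D2:**
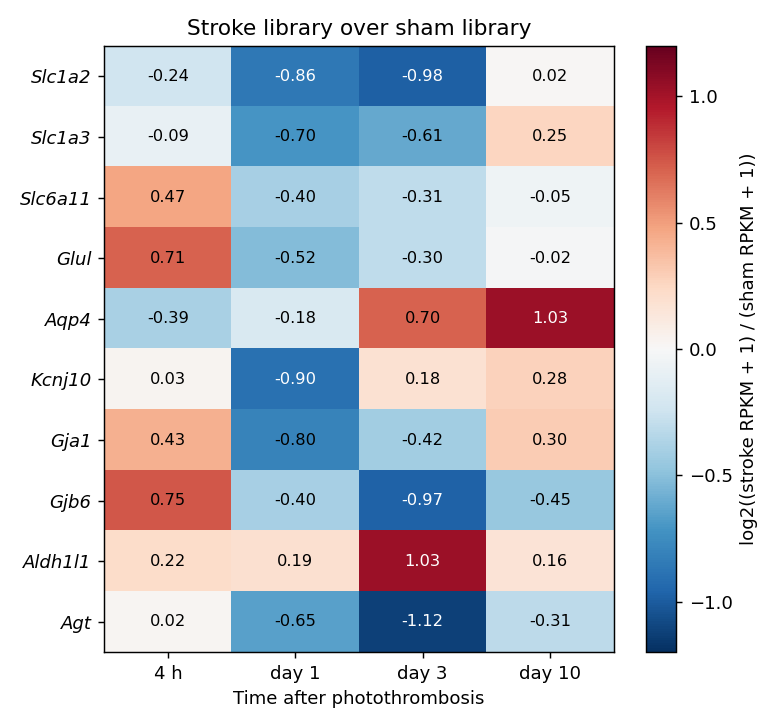
Log2 fold of each gene (rows) at each time (columns) against sham, with 1 RPKM added to both values; red is higher and blue lower in the stroke library, and each cell compares 2 libraries. Day 1 is blue in all rows but Aldh1l1, day 3 is red in Aqp4, Aldh1l1 and Kcnj10 (Kcnj10 turns sign without ribosomal RNA, mitochondrial, small RNA and predicted loci), and Gjb6 and Agt are the rows below -0.3 on day 10.

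Gja1 and Gjb6 encode connexin 43 and connexin 30, the subunits of the gap junction channels between astrocytes. Gja1 (ENSMUSG00000050953, chr10:56377330-56402513, plus strand) measured 3.81 RPKM at 4 hours, 1.05 on day 1, 1.67 on day 3 and 3.41 on day 10, against 2.57 RPKM in sham. The day 1 library was the lowest and the 4-hour library the highest as deposited, and day 10 was above sham. Its ratio to sham was 0.409 on day 1 (0.351 to 0.475), the smallest of the 10 genes in that library. At 4 hours it was 1.48 (1.33 to 1.65) and 1.12 scaled (1.01 to 1.24), on day 3 0.649 (0.566 to 0.739) and on day 10 1.33 (1.19 to 1.47).

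Gjb6 (ENSMUSG00000040055, chr14:57123303-57133611, minus strand) measured 8.97 RPKM at 4 hours, 3.51 on day 1, 2.04 on day 3 and 3.35 on day 10, against 4.94 RPKM in sham. It was above sham at 4 hours and below it on days 1, 3 and 10, with its lowest level on day 3. The ratio to sham was 1.81 at 4 hours (1.57 to 2.096), and 1.37 scaled (1.19 to 1.58). It was 0.710 on day 1 (0.595 to 0.851), 0.412 on day 3 (0.329 to 0.512) and 0.677 on day 10 (0.566 to 0.810). On day 10, 1.47% of all genes had a lower log2 fold than the -0.45 of Gjb6. Its levels on days 1 and 10 could not be told apart by counting (day 10 over day 1 0.954, interval 0.784 to 1.15). The span from its lowest to its highest library, 4.41-fold, was close to the 4.37-fold of Aqp4 as deposited. After scaling Gjb6 on day 3 was 0.270 of its 4-hour level (0.219 to 0.3302), and Aqp4 had the wider span, with day 10 at 5.26 times its 4-hour level (4.30 to 6.50).

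The proportion of the connexin genes to each other differed between libraries. Gja1 over Gjb6 was 0.425 at 4 hours (0.382 to 0.473), 0.2997 on day 1 (0.248 to 0.3602), 0.820 on day 3 (0.662 to 1.02) and 1.02 on day 10 (0.876 to 1.19), against 0.520 in sham (0.452 to 0.6004). Day 1 lay below sham and days 3 and 10 lay above it with intervals apart, and none of this depends on how libraries are scaled.

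The RefSeq promoters of both connexin genes (GRCm38.p6) are shown because their levels parted, and capitals again mark the 6 motifs. The Gja1 window is chr10:56377050-56377349 on the plus strand and the Gjb6 window is chr14:57133562-57133861 on the minus strand.
Gja1: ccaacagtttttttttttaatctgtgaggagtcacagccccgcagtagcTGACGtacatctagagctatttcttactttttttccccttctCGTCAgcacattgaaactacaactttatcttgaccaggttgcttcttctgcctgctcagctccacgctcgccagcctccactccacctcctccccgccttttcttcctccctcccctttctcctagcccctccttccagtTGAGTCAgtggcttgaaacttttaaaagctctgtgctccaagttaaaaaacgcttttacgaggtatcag
Gjb6: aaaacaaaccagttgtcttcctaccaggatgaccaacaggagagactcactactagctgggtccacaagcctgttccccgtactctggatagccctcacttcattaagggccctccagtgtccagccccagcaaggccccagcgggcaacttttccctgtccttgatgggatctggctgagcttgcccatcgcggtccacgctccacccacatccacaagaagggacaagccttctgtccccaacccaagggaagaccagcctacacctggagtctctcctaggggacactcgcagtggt
Gja1 was the 1 member of the 9 with a window that held the AP-1 letters, 19 to 13 bases before its start, where 7.81% of all windows hold them at any position. It also held 2 CRE cores, and the Gjb6 window held none of the 6 motifs. The matches are letters in these windows, and no binding was measured.

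Of 12 other connexin, pannexin and scaffold genes, 9 were analysed. The list medians were 0.31, -0.01, -0.11 and 0.01 at the 4 times (0.09 scaled at 4 hours, -0.18 on day 3, -0.10 on day 10), and 0 of 9 were past 2-fold after 4 hours. Gjb1, the connexin 32 gene of oligodendrocytes, was at 25.9 RPKM on day 1 against 13.1 in sham (log2 fold 0.93). Gjb2, the connexin 26 gene, which is also a gene of the meninges, was low throughout, at 0.914, 1.27, 0.305 and 0.753 RPKM against 0.564 in sham.

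Aldh1l1 encodes a folate dehydrogenase that is used as a general astrocyte marker, and Agt encodes angiotensinogen, which astrocytes make and secrete as the precursor of angiotensins. Aldh1l1 (ENSMUSG00000030088, chr6:90486427-90600203, plus strand) measured 11.99 RPKM at 4 hours, 11.7 on day 1, 21.7 on day 3 and 11.5 on day 10, against 10.1 RPKM in sham. Day 3 stood above the other 4 libraries, which lay within a narrow range. Its ratio to sham was 2.14 on day 3 (1.99 to 2.31), and 1.92 scaled (1.78 to 2.07). At 4 hours it was 1.18 (1.09 to 1.29), which scaling turned to 0.894 (0.823 to 0.972), on day 1 1.16 (1.07 to 1.26) and on day 10 1.13 (1.04 to 1.23, scaled 0.948 to 1.12). The levels at 4 hours, day 1 and day 10 could not be told apart by counting as deposited. After scaling they could, with day 1 over 4 hours at 1.34 (1.24 to 1.45), day 10 over 4 hours at 1.15 (1.06 to 1.25) and day 10 over day 1 at 0.859 (0.794 to 0.931).

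Exons of Aldh1l1 share 604 bases, 13.4% of its exon length, with other genes. The gene on the opposite strand, Gm15756, was at 4.87 RPKM at 4 hours, 4.93 on day 1, 8.09 on day 3 and 4.07 on day 10, against 3.99 RPKM in sham, so it too was highest on day 3. The sources used here do not say if strand was used in counting, so reads of the overlap may belong to either gene. Of 17 other folate and one-carbon genes 10 were analysed, and on day 3 their median log2 fold was 0.45 (0.33 scaled) with 8 of 10 positive. With 1 RPKM added, the 1 gene 2-fold higher on day 3 was Shmt2, the mitochondrial serine hydroxymethyltransferase gene, at 8.87 RPKM against 3.92 in sham (1.00). Tyms, the thymidylate synthase gene of dividing cells, was at 1.07 against 0.0841 RPKM, which is a log2 fold of 0.93 on that scale and a plain ratio of 12.8. At 4 hours, day 1 and day 10 no gene of that list was past 2-fold, and the medians were 0.17 (-0.07 scaled), 0.17 and 0.18 (0.11 scaled).

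Agt (ENSMUSG00000031980, chr8:124556534-124569706, minus strand) measured 5.62 RPKM at 4 hours, 3.15 on day 1, 2.00 on day 3 and 4.24 on day 10, against 5.51 RPKM in sham. It was level with sham at 4 hours as deposited and lower at each later time, with the lowest level on day 3. Its ratio to sham was 0.363 on day 3 (0.278 to 0.470), and 0.321% of all genes had a lower log2 fold than its -1.12, the lowest of the 10 genes at any time. The ratio was 0.572 on day 1 (0.460 to 0.709) and 0.770 on day 10 (0.634 to 0.938). At 4 hours it was 1.02 (0.849 to 1.22), which scaling turned to 0.770 (0.641 to 0.925). Agt over Aldh1l1 within a library was 0.468 at 4 hours, 0.269 on day 1, 0.0923 on day 3 and 0.370 on day 10, against 0.544 in sham, a 5.89-fold span that was the widest of the 6 pairs. Of 11 other renin-angiotensin genes 4 were analysed. Atp6ap2, the prorenin receptor gene, was 2-fold higher at 4 hours (8.39 RPKM against 3.47 in sham), and Anpep, an aminopeptidase gene also made by myeloid cells, on day 3 (1.57 against 0.194).

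**Figure D3:**
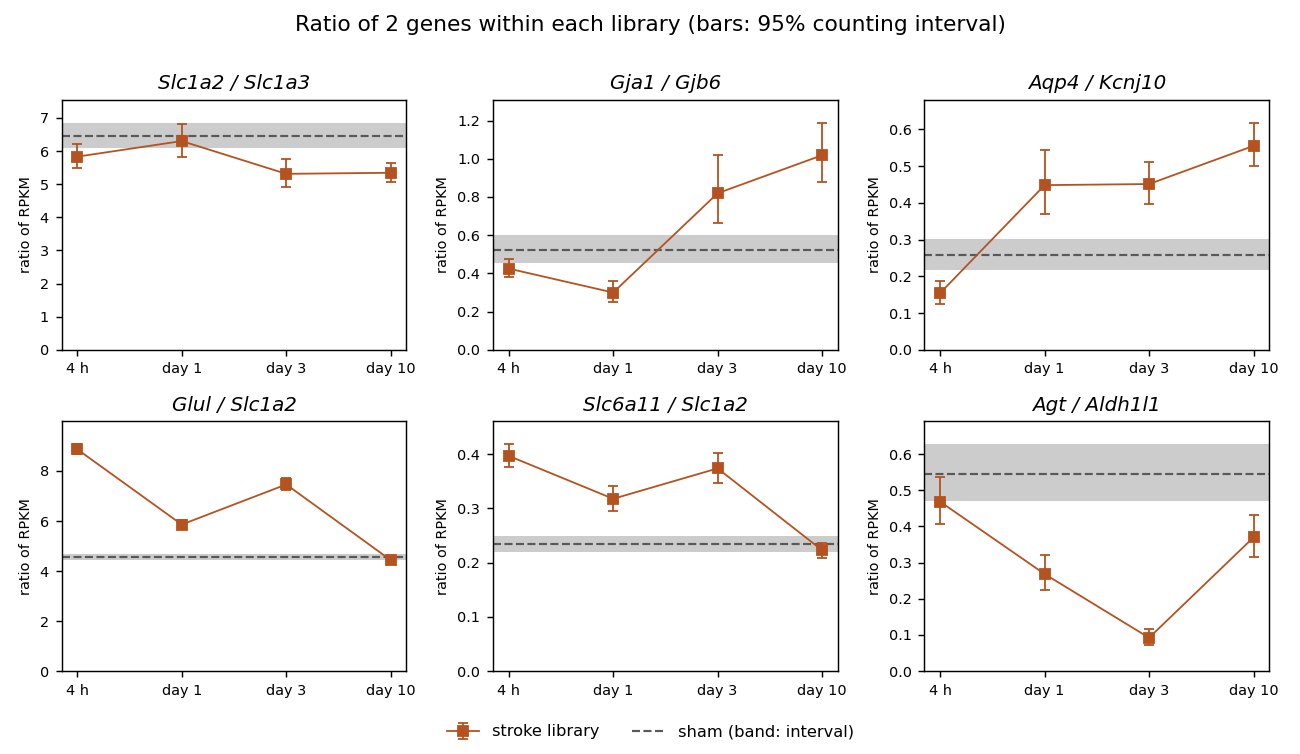
Ratio of the RPKM of 2 genes within each stroke library (squares) and in sham (dashed line), with 95% counting intervals as bars and band; library scaling cancels in these ratios. Slc1a2 over Slc1a3 stays between 5.31 and 6.45, Gja1 over Gjb6 is 0.2997 on day 1 and 1.02 on day 10, and Agt over Aldh1l1 is lowest on day 3 with 0.0923.

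The order of the 5 libraries differed between the genes. As deposited, day 1 was the lowest library for Slc1a3, Slc6a11, Glul, Kcnj10 and Gja1, day 3 for Slc1a2, Gjb6 and Agt, 4 hours for Aqp4, and sham for Aldh1l1. By the same values the 4-hour library was the highest for Slc6a11, Glul, Gja1, Gjb6 and Agt, day 10 for Slc1a2, Slc1a3, Aqp4 and Kcnj10, and day 3 for Aldh1l1. Counting did not separate day 1 from day 3 for Slc1a3 and Slc6a11, 4 hours from sham for Agt, day 10 from sham for Slc1a2, or day 10 from day 3 for Kcnj10. After median-of-ratios scaling day 3 was the lowest for Slc1a3 (0.941 of day 1, 0.845 to 1.05) and Slc6a11 (0.933, 0.845 to 1.03), and 4 hours for Aldh1l1. The highest was then sham for Agt and Slc1a2, and day 10 for Gja1 (1.08 of 4 hours, 0.981 to 1.19).

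Other astrocyte markers gave the setting for these values. Of the 29 analysed, 22 had a negative log2 fold on day 1 (median -0.43) and 20 on day 3 (median -0.20, -0.31 scaled), and the median on day 10 was 0.13 (0.00 scaled). Markers of that list went both ways on day 3: Fabp7, a lipid-binding protein gene of immature astrocytes, was at 11.1 RPKM against 2.01 in sham (2.00), and Mt3, a metallothionein gene, at 749 against 339 (1.14), while Sparcl1, a secreted matricellular protein gene, was at 28.3 against 61.7 (-1.10). Sox9, a transcription factor gene of astrocytes, was at 2.47 RPKM on day 3 against 2.89 (-0.16), and Aldoc, an aldolase gene, at 143 against 179 (-0.33). Reactive astrocyte genes had a median of 1.19 on day 1, 1.80 on day 3 (1.66 scaled) and 0.57 on day 10 (0.49 scaled), with 8, 8 and 5 of 12 at least 2-fold higher. At 4 hours their median was -0.50 (-0.70 scaled), with 4 of 12 at least 2-fold lower. These were Gfap (26.3 RPKM against 102 in sham), Lcn2 (0.780 against 10.3), Serpina3n (4.66 against 33.0) and Timp1 (0.368 against 11.1). No library of untouched tissue was made, so a low 4-hour level and a raised sham level cannot be told apart. Every ratio to sham in this report uses that sham library.

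Markers of other cells differed between the same libraries. Medium spiny neuron markers were 2-fold lower in 7 of 13 genes on day 1 and 2 of 13 on day 3. As deposited their summed levels were 2812 RPKM at 4 hours, 1175 on day 1, 1682 on day 3 and 1932 on day 10, against 2242 RPKM in sham. Their median log2 fold at 4 hours was 0.21, which scaling turned to -0.19. It was -1.02 on day 1 (-0.97 scaled), -0.46 on day 3 (-0.61 scaled) and -0.19 on day 10 (-0.32 scaled). Of 12 microglia and macrophage markers 11 were analysed, and their summed level was 216, 290, 2002 and 2445 RPKM at the 4 times, against 280 RPKM in sham. The monocyte marker Ccr2 was at 0 in the 4-hour library and under 1 RPKM in the others. The part of these cell types in the values of the 10 genes was not tested.

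**Figure D4:**
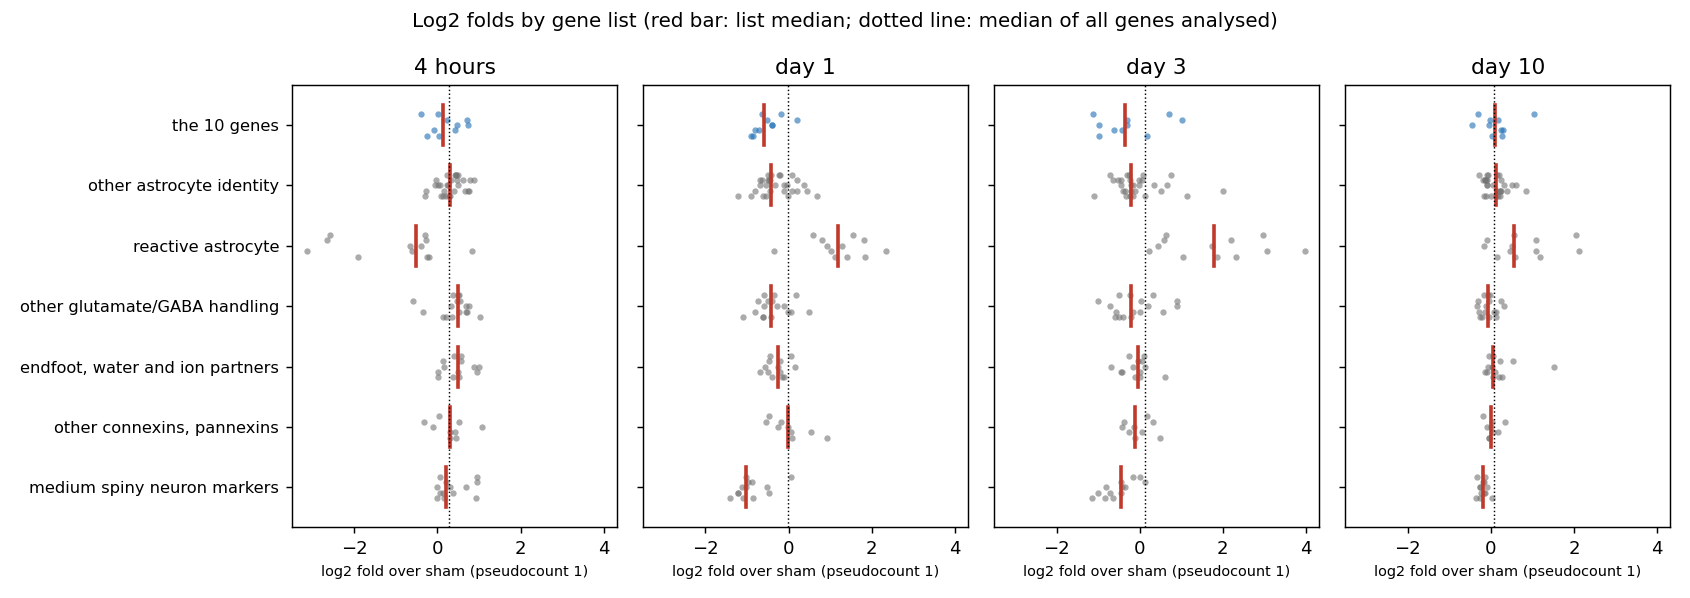
Log2 fold over sham (1 RPKM added) of each analysed gene (points) in 7 lists at each time, with list medians as red bars and the median of all genes as a dotted line. The 10 genes have medians of 0.13 (-0.23 after median-of-ratios scaling), -0.59, -0.36 and 0.09, and reactive astrocyte genes have medians of -0.50, 1.19, 1.80 and 0.57.

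Genes outside the list with a like course were sought by the Euclidean distance of their 4 log2 folds, over 5497 genes with a mean of at least 5 RPKM. The 6 nearest to the median course of the 10 members were the predicted genes Gm38182 and Gm37013, then Znfx1, Ski, Fam102a and Lrfn4, at distances of 0.06 to 0.12, and 573 genes lay within 0.5. For single members the nearest gene was Shank3, a postsynaptic scaffold gene, for Slc1a2 (0.23), Plxnb1 for Slc1a3 (0.29), Egr1 for Slc6a11 (0.07), Nub1 for Glul (0.11), Gm17415 for Aqp4 (0.23) and 1190005I06Rik for Kcnj10 (0.22). It was the taurine transporter gene Slc6a6 for Gja1 (0.22), Nsf for Gjb6 (0.15), Cuta for Aldh1l1 (0.13) and Nefm, a neurofilament gene, for Agt (0.13). Within 0.5 of Aqp4 there were 26 genes and within 0.5 of Slc6a11 there were 890. The distances cover 5 libraries that share 1 sham library, and they describe likeness in these libraries only.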

How the data were processed

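RNA was measured in 5 libraries of total RNA, 4 from stroke tissue and 1 from sham tissue. Tools named in the submitters' processing notes are HISAT2 2.1.0, StringTie 1.3.4d and Trimmomatic 0.36, with GRCm38 as build and no roles. Per the file headers, the authors deposited 1 RPKM value per gene and library and, for each pair of libraries, a log2 fold and a GFOLD value, which is a shrunken log2 fold. The counter and annotation are not given in the sources used here. Deposited false discovery rates are 1 for every gene and were not used, nor were p-values whose test is not stated.

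Reads were recovered as RPKM times the union exon length of GENCODE mouse release 21 (GRCm38), which was whole within 0.02 of a read for 90.4% to 90.5% of values below 5000 reads per library. Intervals use these reads divided by 2, since mates of a pair may both be counted. Genes with at least 1 RPKM in a library were analysed, with a pseudocount of 1 and limits of 2-fold and 1.5-fold. Alternatives were 3 other scalings, other pseudocounts (0.1, 0.5), a 5 RPKM floor or none, and a counting interval. Read recovery and the 2-fold call were tested on simulated reads, drawn without mates and with exact exon lengths. The counting intervals were not tested in this way. Python 3.11.15, scipy 1.17.1 and pandas 2.3.3 were used.

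The members and lists were chosen with earlier results of these data known. Named are all 10 members, the 2 highest and 2 lowest genes of a list at a time, set partner genes of the members and the nearest genes by course; only some of these are printed, and some are not reported here.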

Additional observations from a re-analysis of the deposited data

Results flagged for a closer look

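Gjb6 was at least 1.5-fold above sham at 4 hours (log2 fold 0.75) and at least 1.5-fold below it on day 3 (log2 fold -0.97), with 1 RPKM added to both values. On that scale no other of the 10 genes was past the limit in both directions, but by plain ratio Aqp4 was too, at 0.616 at 4 hours and 2.69 on day 10. The difference between the times was not tested, since each is 1 library. After median-of-ratios scaling the Gjb6 ratio to sham was 1.37 at 4 hours and 0.369 on day 3. The scaled log2 fold at 4 hours was 0.39, short of the 1.5-fold limit, so Gjb6 then passed the limit only as lower.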

How the results depend on the processing

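No paired analysis was possible because each group is 1 library and no test was made. The depth limits Agt, Aqp4 and Gjb6 most, with 160 Agt reads and 230 Gjb6 reads on day 3 and 230 Aqp4 reads at 4 hours. The median log2 fold of the 10 members at 4 hours turned sign, to -0.23 with median-of-ratios scaling, -0.21 with trimmed-mean-of-M scaling and -0.18 without mitochondrial, small RNA, predicted and ribosomal RNA loci. On day 3 the same 3 settings gave -0.49, -0.49 and -0.59. On day 10 they gave -0.038, -0.0035 and -0.044, a floor of 5 RPKM, which leaves out Aqp4 and Gja1, gave 0.00033, and leaving out the members that overlap a gene on the opposite strand (chosen after seeing the data) gave 0.25. The day 1 median stayed between -0.66 and -0.54 under these settings and both other pseudocounts. Under each of the 3 scaling settings, 0 members were 2-fold higher on day 3 and 0 on day 10, in place of 1 each, and 3 were 2-fold lower on day 3, in place of 1. The shares of all genes were not rescaled beside these counts. Pseudocounts of 0.1 and 0.5 each also gave 3 lower on day 3, and 0.1 gave 2 lower on day 1. The floor gave 0 higher on day 10. The 1.5-fold limit gave 2 higher at 4 hours, 5 lower on day 1, and 2 higher and 4 lower on day 3. A counting interval that excludes 1 changed no 2-fold count. Scaling turned the sign of Kcnj10, Aldh1l1 and Agt at 4 hours and of Slc1a2 on day 10 under each of the 3 settings, and of Kcnj10 on day 3 without the named loci. The causes were not tested. In the authors' deposited table the GFOLD value was 0 for Kcnj10 and Agt at 4 hours and for Slc1a2, Slc6a11 and Glul on day 10.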
